A study of Mus musculus with 112 samples.

Results

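The probes described here are 56 liver probes that were higher under both fibrates, fenofibrate and bezafibrate, than under tesaglitazar and under saline. They were chosen from 45281 array probes in 3 steps. Initially, 14187 probes had a detection p under 0.05 in all 9 fenofibrate and all 9 bezafibrate livers. Each of these then got a score, the smallest of its 4 mean log2 differences in liver (fenofibrate minus saline, bezafibrate minus saline, fenofibrate minus tesaglitazar and bezafibrate minus tesaglitazar), on quantile-normalised log2 raw intensities. Finally, the 60 highest scores were taken, and 4 of these probes were left out by name and are not described. The score was 0.93 at the highest member, 0.34 at the median member and 0.23 at the lowest, and it was above 0 for 1498 of the 14187 probes. Just inside the limit lay Gpt2 at 0.235, Alas1 at 0.233 and Inmt at 0.231, and just outside it an unnamed probe at 0.229, Ttc7 at 0.224 and Hspa2 at 0.215. These values chose the members, so the 4 differences are given below as a description and without a test.

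The study gave male C57BL/6J mice one of 3 agonists of the peroxisome proliferator-activated receptors (PPARs), or saline, for 8 days. The doses were 150 mg/kg of fenofibrate, 75 mg/kg of bezafibrate and 1.5 mg/kg of tesaglitazar. As background, fenofibrate is known as a PPARα agonist, bezafibrate as one of every subtype and tesaglitazar as a dual agonist of PPARα and PPARγ. The agonists were suspended in saline with a detergent, and the labels give the route both as oral and as an injected volume. Each compound was given at 1 dose, so every comparison of compounds holds for these doses only. Liver, prefrontal cortex and amygdala were hybridised to Illumina bead arrays, with 9 or 10 arrays for each tissue and treatment, and each array was taken to stand for 1 mouse.

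In liver, the libraries labelled saline 4 and tesaglitazar 6 stood apart from their groups. On an axis that runs over 19984 probes from the saline mean at 0 to the tesaglitazar mean at 1, saline 4 lay at 0.989 and tesaglitazar 6 at 0.0235. The choice of members left both out, and so do the liver values below, which come from 9 fenofibrate, 9 bezafibrate, 8 tesaglitazar and 9 saline livers. Over the members, saline 4 was nearer to the tesaglitazar mean than to the saline mean for 39 of 56 and tesaglitazar 6 nearer to the saline mean for 31 of 56. Between 38.1% and 42.7% of probes were above background on the liver arrays. Marker intensities were summed over all probes of a list, detected or not. The sum of the 8 hepatocyte marker probes, of which 7 were detected, was 90594.5 to 98031.7 under fenofibrate, 101793 to 114949 under bezafibrate, 82578.5 to 89293.7 under tesaglitazar and 106606 to 120019 under saline. None of 5 adipocyte marker probes was detected in liver. Stellate cell or fibroblast markers (12 of 15 probes detected) summed to 5584.96 to 6863.18 under fenofibrate, 5806.79 to 7352.59 under bezafibrate, 5256.31 to 7726.36 under tesaglitazar and 7218.94 to 9746.19 under saline, and 7 of them were called lower under fenofibrate and 7 under tesaglitazar. Of 10 detected Kupffer cell or macrophage probes 3 were called lower under fenofibrate and 3 under tesaglitazar, with sums of 995.992 to 4169.82 under fenofibrate, 924.064 to 2696.59 under bezafibrate, 1135.45 to 1893.58 under tesaglitazar and 1546.99 to 3169.47 under saline. Of 3 erythroid probes 2 were called lower under fenofibrate and 3 under tesaglitazar, with sums of 4034.54 to 6415.85 under fenofibrate, 3509.81 to 7607.73 under bezafibrate, 2236.28 to 5379.84 under tesaglitazar and 5441.84 to 9142.6 under saline. Of the 7 hepatocyte probes detected, 4 were called lower under fenofibrate, 0 under bezafibrate and 4 under tesaglitazar, each against saline, and 3 were called higher under each fibrate than under tesaglitazar. The list of astrocyte markers (Gfap, Aqp4, Slc1a2 and Aldh1l1, the last an enzyme of folate metabolism that liver also expresses) had 6 of 11 probes detected, with sums of 2704.41 to 3449.32 under fenofibrate, 4137.3 to 5412 under bezafibrate, 1174.04 to 2845.38 under tesaglitazar and 4376.06 to 5549.57 under saline. All 6 were called higher under fenofibrate than under tesaglitazar and 5 under bezafibrate than under tesaglitazar, while 4 were called lower and 1 higher under fenofibrate and 5 lower under tesaglitazar, each against saline. Of 13 neuron marker probes 4 were detected, with sums of 404.452 to 658.969 under fenofibrate, 530.138 to 726.561 under bezafibrate, 294.714 to 443.449 under tesaglitazar and 500.127 to 626.516 under saline. Of these, 2 were called higher under fenofibrate and 4 under bezafibrate, each against tesaglitazar, and 3 were called lower under tesaglitazar than under saline. The part of these marker levels in the members' differences was not tested, and in whole tissue fewer cells of a type and less RNA per cell cannot be told apart.

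PPARs are nuclear receptors that bind DNA as partners of the retinoid X receptor and switch on genes of fatty acid uptake and oxidation in liver. The circadian clock of the liver is a feedback loop, in which ARNTL and CLOCK activate the Per, Cry and Nr1d genes through E-boxes and the PER and CRY proteins then inhibit that activation. PAR bZIP factors such as DBP and TEF carry the rhythm on to metabolic genes through D-boxes.

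The platform annotation gave a gene for 47 of the 56 members and none for 9. The 47 probes fell on 36 genes, of which 8 had more than 1 member probe (Noct, Per1, Per2, Coq10b, Nrg4, Pcsk4, Upp2 and Ivns1abp). Probes of 1 gene share their transcript and are not independent. Among 17 lists of gene groups, the circadian clock list held 8 members, the CAR and PXR target list 4, the NRF2 target list 2, the glucocorticoid target list the 2 Per1 probes, and the fatty acid and bile acid lists 1 each. The other 11 lists held none. The list of PPARα targets of fatty acid oxidation was among these, with 41 of its 47 probes called higher under fenofibrate, 13 under bezafibrate and 44 under tesaglitazar, each against saline, at a limma p adjusted over all probes tested. Higher calls made up 14.7%, 1.54% and 22.5% of all probes in those comparisons.

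The members differed in the size of the fibrate response and in where tesaglitazar lay. The log2 difference from saline was above 0 for all 56 members under either fibrate, as the choice requires, with a median of 0.69 under fenofibrate and 0.61 under bezafibrate. Under tesaglitazar it was above 0 for 19 of 56 members, with a median of -0.14, beside -0.01 over all 19773 probes tested. All fibrate livers lay above all tesaglitazar livers for 13 of 56 members (1.03% of all probes tested), above all saline livers for 7 (0.116%), and above both for 3 (0.0152%). The members were chosen for this order, so nothing is read from these counts.

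The largest group of members by list belonged to the clock. Per1 and Per2 code for repressors of the loop, Per3 for a related protein, Ciart for a rhythmic repressor of ARNTL and CLOCK activity, Tef for a D-box binding factor and Usp2 for a rhythmic deubiquitinase.

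Per2 (ILMN_2987862) had log2 levels of 8.51 (lowest), 9.19 (median) and 9.49 (highest) in fenofibrate livers, of 8.90, 9.31 and 9.66 in bezafibrate livers, of 7.10, 7.53 and 8.20 in tesaglitazar livers, and of 7.17, 8.49 and 8.76 in saline livers. Every bezafibrate liver was above every saline liver, the lowest fenofibrate liver lay within the saline range, and the tesaglitazar livers lay below the saline median. Its mean was 0.84 higher under fenofibrate and 0.99 higher under bezafibrate than under saline on the log2 scale. The second Per2 probe, ILMN_2987863, had differences of 0.75 and 0.93.

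Per1 (ILMN_2813484) had log2 levels of 6.63 (lowest), 7.96 (median) and 8.39 (highest) in fenofibrate livers, of 7.68, 7.97 and 8.74 in bezafibrate livers, of 6.17, 6.65 and 7.29 in tesaglitazar livers, and of 6.35, 7.02 and 8.04 in saline livers. Bezafibrate livers did not overlap tesaglitazar livers but overlapped saline livers. The saline livers spread over more than the difference between the fibrate and saline means, which was 0.71 for fenofibrate and 0.98 for bezafibrate.

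Per3 (ILMN_1257393) had log2 levels of 5.53 (lowest), 6.34 (median) and 6.48 (highest) under fenofibrate, of 5.74, 6.16 and 6.41 under bezafibrate, of 4.78, 5.29 and 5.95 under tesaglitazar, and of 4.90, 5.32 and 5.85 under saline. The second Per3 probe, ILMN_1251591, which is dim and no member, differed from saline by 0.03 under fenofibrate and 0.08 under bezafibrate (limma adjusted p = 0.873 and 0.829). Ciart had 5.27, 6.24 and 6.61 under fenofibrate, 6.15, 6.38 and 6.63 under bezafibrate, 4.37, 4.68 and 5.86 under tesaglitazar, and 4.45, 4.68 and 5.54 under saline. For both genes the tesaglitazar and saline livers covered nearly the same range, and all bezafibrate Ciart values lay above it. Ciart was above background in only 5 of 8 tesaglitazar and 7 of 9 saline livers, so its levels there are close to the lower end of the array.

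Usp2 (ILMN_2482390) had log2 levels of 4.76 (lowest), 5.39 (median) and 5.84 (highest) under fenofibrate, of 4.83, 5.22 and 5.59 under bezafibrate, of 4.15, 4.27 and 4.43 under tesaglitazar, and of 4.23, 4.31 and 4.97 under saline. It was not above background in any tesaglitazar liver and in only 2 of 9 saline livers. Against the dimmest signal above background, Usp2 was at least 1.86-fold higher under fenofibrate and at least 1.62-fold higher under bezafibrate than under tesaglitazar.

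Tef (ILMN_2676052) had log2 levels of 8.65 (lowest), 9.18 (median) and 9.42 (highest) under fenofibrate, of 9.11, 9.58 and 10.11 under bezafibrate, of 7.13, 7.95 and 8.82 under tesaglitazar, and of 8.39, 8.77 and 9.38 under saline. The bezafibrate and fenofibrate livers overlapped saline, and the tesaglitazar livers lay mostly below it. At the second Tef probe, ILMN_2715400, the log2 difference from saline was -0.11 under fenofibrate and 0.30 under bezafibrate (limma adjusted p = 0.442 and 0.111). Noct, which codes for the rhythmic protein nocturnin, had the highest score. Its probe ILMN_1255422 had 7.50, 8.99 and 9.88 under fenofibrate, 8.14, 8.83 and 9.64 under bezafibrate, 6.63, 7.43 and 8.05 under tesaglitazar, and 5.93, 7.70 and 9.34 under saline, so that the saline livers spanned almost the range of all other groups.

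The clock list reached further than the members. It held 24 tested probes, of which 8 were members. Of its 16 other probes, 2 were higher and 4 lower under fenofibrate, 1 was higher and 3 were lower under bezafibrate, and 1 was higher and 5 were lower under tesaglitazar. Calls in either direction made up 30% of all probes for fenofibrate, 3.22% for bezafibrate and 46.3% for tesaglitazar. Lists such as this one were drawn up with earlier results of these data known.

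Arntl and Clock, which code for the activators of the loop, were called lower under both fibrates, and Clock was called higher under tesaglitazar at 1 of its 2 probes. Arntl had log2 levels of 4.38 (lowest), 4.46 (median) and 5.02 (highest) in fenofibrate livers, of 4.29, 4.39 and 4.62 in bezafibrate livers, of 4.28, 5.06 and 5.82 in tesaglitazar livers, and of 4.70, 5.52 and 6.41 in saline livers. It was above background in 3 of 9 livers of each fibrate group, 7 of 8 tesaglitazar livers and all 9 saline livers, so its fibrate levels lie at the lower end of the array. With that limit, its measured log2 difference from saline was -0.89 under fenofibrate, -0.997 under bezafibrate and -0.33 under tesaglitazar (limma adjusted p = 0.131 for the last). Clock (ILMN_2610973) had 8.26, 8.33 and 9.02 under fenofibrate, 8.01, 8.37 and 8.53 under bezafibrate, 8.76, 9.20 and 9.63 under tesaglitazar, and 8.62, 8.97 and 9.24 under saline. All bezafibrate livers lay below all saline livers, and the fenofibrate liver that overlapped them most was again 37. The log2 difference of this Clock probe under tesaglitazar was 0.29 (limma adjusted p = 0.0314). At the other Clock probe, ILMN_2600964, it was -0.01 under tesaglitazar (limma adjusted p = 0.948), beside -0.33 under fenofibrate (limma adjusted p = 0.0152) and -0.49 under bezafibrate (limma adjusted p = 0.00548). Nr1d1, a repressor gene driven by the same activators as Per1 and Per2, was called lower under fenofibrate (-0.90, limma adjusted p = 2.34e-06) and under tesaglitazar (-0.60, limma adjusted p = 0.000524), and differed by -0.24 under bezafibrate (limma adjusted p = 0.406). These 3 genes were named after their values were known.

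Promoter windows from RefSeq on build GRCm38.p6, which run from 250 bases before to 50 after an annotated start, were found for 30 of the 36 genes, with 42 windows in all. An E-box, CACGTG, stood in 9 of these windows (21.4%) and in 7.15% of all 32851 windows of that length. A D-box, searched as TTATGTAA, TTATGCAA or TTACGTAA on both strands, stood in 4 member windows (9.52%) and in 1.78% of all windows. The E-prime box CACGTT stood in 1 (2.38%) and in 4.68% of all, and neither the cAMP response element TGACGTCA, in 1.79% of all windows, nor the direct repeat that PPARs bind, searched as 2 copies of AGGTCA with 1 base between them and present in 0.0396% of all, was in any member window. These are counts of letters and say nothing of a factor's binding, and windows of 1 gene can overlap. For each of 4 clock genes and Coq10b, 1 window that holds such a box is shown, with the E-box and D-box matches of either strand in capitals. They are the windows of Ciart (chr3:95882179-95882478, minus strand), Per1 (chr11:69098699-69098998, plus strand), Coq10b (chr1:55052520-55052819, plus strand), Tef (chr15:81802423-81802722, plus strand) and Per3 (chr4:151044616-151044915, minus strand).
Ciart: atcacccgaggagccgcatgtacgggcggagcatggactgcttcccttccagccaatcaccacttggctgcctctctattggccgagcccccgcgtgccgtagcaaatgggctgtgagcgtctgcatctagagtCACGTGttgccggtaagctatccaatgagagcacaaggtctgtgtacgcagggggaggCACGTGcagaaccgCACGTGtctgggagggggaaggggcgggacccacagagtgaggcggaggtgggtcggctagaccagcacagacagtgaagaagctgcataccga
Per1: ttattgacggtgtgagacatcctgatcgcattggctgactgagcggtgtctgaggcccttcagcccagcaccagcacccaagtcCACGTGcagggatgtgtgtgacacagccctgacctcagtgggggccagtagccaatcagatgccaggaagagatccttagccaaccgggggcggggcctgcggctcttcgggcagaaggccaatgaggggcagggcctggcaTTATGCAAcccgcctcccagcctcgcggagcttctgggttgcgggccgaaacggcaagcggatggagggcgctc
Coq10b: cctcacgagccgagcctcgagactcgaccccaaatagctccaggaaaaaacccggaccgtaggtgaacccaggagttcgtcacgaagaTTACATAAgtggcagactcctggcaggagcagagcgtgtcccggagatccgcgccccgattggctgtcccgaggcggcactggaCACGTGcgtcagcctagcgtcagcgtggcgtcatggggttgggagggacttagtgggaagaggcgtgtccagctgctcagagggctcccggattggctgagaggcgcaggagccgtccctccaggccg
Tef: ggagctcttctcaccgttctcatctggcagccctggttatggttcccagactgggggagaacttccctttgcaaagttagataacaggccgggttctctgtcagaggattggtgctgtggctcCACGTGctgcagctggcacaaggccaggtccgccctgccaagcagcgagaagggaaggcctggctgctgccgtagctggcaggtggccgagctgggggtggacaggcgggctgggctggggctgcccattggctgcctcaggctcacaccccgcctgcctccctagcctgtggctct
Per3: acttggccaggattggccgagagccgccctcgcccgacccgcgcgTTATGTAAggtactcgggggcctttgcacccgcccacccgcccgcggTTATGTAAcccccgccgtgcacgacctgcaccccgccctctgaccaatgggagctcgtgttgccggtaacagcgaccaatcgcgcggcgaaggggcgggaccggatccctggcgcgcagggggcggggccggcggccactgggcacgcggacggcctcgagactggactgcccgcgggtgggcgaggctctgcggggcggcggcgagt
Ciart held 3 E-boxes, at positions -116, -58 and -44 from the start. Per1 held an E-box at -166 and a D-box at -24, and Coq10b an E-box at -78 and a D-box at -162, so these were the members with both. Per3 held 2 D-boxes and no E-box. The Tef window shown held an E-box at -127, and a second Tef window (chr15:81811164-81811463, plus strand), which is not shown, held one at -138.

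Against saline, tesaglitazar called 23 of the 56 members, 6 higher and 17 lower, where 46.3% of all probes were called. All 4 liver group means entered the choice of members, so a member had to lie low under tesaglitazar relative to the fibrates, but the sign of its difference from saline was not fixed by the choice. The 17 lower probes were the 3 of Upp2, both of Per2, 1 of 3 of Ivns1abp, Thrsp, Ngef, Tef, Nrep, Cyp7a1, Inmt, Akr1c19 and 4 without a gene name. The 6 higher probes were both of Nrg4, Alas1, Slc5a6, Rhobtb1 and Ppl.

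Upp2, which codes for a liver uridine phosphorylase, had the largest difference of all members. Its probe ILMN_2458184 had log2 levels of 8.88 (lowest), 9.37 (median) and 10.06 (highest) in tesaglitazar livers and of 10.43, 10.85 and 11.17 in saline livers, which did not overlap. The level was 2.74-fold lower under tesaglitazar (log2 difference -1.46, SE 0.15, limma adjusted p = 2.64e-10), and the other 2 probes were 2.70-fold and 2.53-fold lower. Under fenofibrate the livers had 10.21, 11.24 and 11.61, and under bezafibrate 11.37, 11.70 and 11.82.

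Ngef, a guanine nucleotide exchange factor known from neurons, had log2 levels of 6.24 (lowest), 6.89 (median) and 7.71 (highest) in tesaglitazar livers and of 7.78, 8.24 and 8.65 in saline livers. Its level was 2.41-fold lower (log2 difference -1.27, SE 0.16, limma adjusted p = 2.34e-08), with no overlap of the groups. Thrsp, a nuclear protein tied to lipogenesis, had 8.46, 9.04 and 10.33 under tesaglitazar and 9.13, 10.71 and 11.07 under saline and was 2.47-fold lower (log2 difference -1.31, SE 0.29, limma adjusted p = 0.000232). Tef was 1.86-fold lower (log2 difference -0.89, SE 0.17, limma adjusted p = 2.23e-05) and Per2 1.67-fold lower (log2 difference -0.74, SE 0.17, limma adjusted p = 0.000323). Within mouse numbers 1 to 20 alone, 3 of these calls were lost: Thrsp differed by -0.71 (limma adjusted p = 0.229) and the Per2 probes by -0.34 and -0.26 (limma adjusted p = 0.326 and 0.471).

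Per1, Per3 and Ciart did not pass the test under tesaglitazar. Their log2 differences were -0.45 for Per1 (95% interval -0.90 to 0.01), -0.27 for the second Per1 probe, -0.12 for Per3 and -0.07 for Ciart (interval -0.43 to 0.30). Usp2 gives no difference between tesaglitazar and saline, since it was above background in 0 of 8 and 2 of 9 livers. Of the 8 clock members, 3 were therefore called lower under tesaglitazar and none higher, where 46.3% of all probes were called in either direction. They were both member probes of Per2 and the Tef member. The choice required members to lie low under tesaglitazar relative to the fibrates, so nothing is read from this count. Among the list's other probes, Cry2 was called lower with a difference of -0.71 and Bhlhe40 with -0.86. The second Tef probe was called lower too, but it was above background in only 1 of 8 tesaglitazar livers, against 9 of 9 saline livers.

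Cyp7a1, the rate-limiting enzyme of bile acid synthesis, had log2 levels of 9.32 (lowest), 10.43 (median) and 11.99 (highest) in tesaglitazar livers and of 10.44, 11.36 and 11.82 in saline livers. The groups overlapped, and the difference was -0.73 (SE 0.27, limma adjusted p = 0.0222). The call was lost under 6 of 28 alternatives. With median centring the difference was -0.62 (limma adjusted p = 0.0658), with no detection filter -0.73 (0.0649), with all 37 livers as labelled -0.56 (0.0916), within numbers 1 to 20 -0.63 (0.189), within numbers 21 to 40 -0.78 (0.0721), and without tesaglitazar liver 7 -0.54 (0.0794). Of the 16 other probes on the list of bile acid synthesis and transport, 14 were called lower and 1 higher under tesaglitazar. Under fenofibrate 9 of them were called lower and 2 higher, and under bezafibrate 3 lower and none higher, while Cyp7a1 was 0.43 and 0.42 above saline on the log2 scale. Among all probes, 46.3% were called in either direction under tesaglitazar, 30% under fenofibrate and 3.22% under bezafibrate. Abcg8, a subunit of the transporter of sterols into bile, was 0.40 and 0.30 above saline under the fibrates and 0.08 below it under tesaglitazar.

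Inmt, a methyltransferase of indole amines, had log2 levels of 12.14 (lowest), 12.60 (median) and 13.05 (highest) in tesaglitazar livers and of 13.12, 13.30 and 13.48 in saline livers, without overlap, and a log2 difference of -0.67 (SE 0.10, limma adjusted p = 1.05e-06). Nrep had 7.69, 8.56 and 9.63 under tesaglitazar and 8.39, 9.40 and 10.04 under saline, with a difference of -0.74 (SE 0.27, limma adjusted p = 0.0234) that did not pass with median centring (-0.60, limma adjusted p = 0.0817) or within mouse numbers 1 to 20 (-0.27, limma adjusted p = 0.593). The Nrep groups overlapped, and its fibrate livers reached 10.91 under fenofibrate and 11.25 under bezafibrate. The 4 unnamed probes called lower had differences of -0.88 (ILMN_1236537), -0.46 (ILMN_1235909), -0.33 (ILMN_2641360) and -0.22 (ILMN_2742426).

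Alas1, the first enzyme of haem synthesis, was the member with the largest rise under tesaglitazar. It had log2 levels of 12.92 (lowest), 13.38 (median) and 13.89 (highest) in tesaglitazar livers and of 11.22, 12.86 and 13.62 in saline livers, and its difference was 0.63 (SE 0.20, limma adjusted p = 0.00794). Its differences under fenofibrate and bezafibrate were 0.94 and 0.87. Nrg4, a ligand of the ErbB4 receptor, had 6.02, 6.50 and 6.76 under tesaglitazar and 5.61, 6.13 and 6.50 under saline, with a difference of 0.39 (SE 0.12, limma adjusted p = 0.00974), and 7.35 ± 0.26 under fenofibrate and 7.23 ± 0.24 under bezafibrate (SD, n = 9 each). Slc5a6, a transporter of biotin and pantothenate, differed by 0.35 (limma adjusted p = 0.032), Rhobtb1 by 0.32 and Ppl, which codes for periplakin, by 0.32. The calls of Slc5a6, Ppl and the second Nrg4 probe were lost in 14, 15 and 16 of 28 alternatives; with the authors' processed values Ppl differed by 0.13 (limma adjusted p = 0.121). Slc5a6 was no longer called with saline 4 and tesaglitazar 6 put back (0.21, limma adjusted p = 0.255), and within mouse numbers 21 to 40 no member was called higher. In the main fit these members lay above saline under tesaglitazar. That they lay below both fibrates follows from the choice of members.

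Members of 3 probes showed how far probes of a gene agree. Pcsk4, a proprotein convertase known from germ cells, was 0.93 to 1.25 above saline under fenofibrate, 0.86 to 1.21 under bezafibrate and 0.23 to 0.35 under tesaglitazar, with no call for tesaglitazar. Its probe ILMN_1252464 had log2 levels of 8.28 (lowest), 8.99 (median) and 9.22 (highest) under fenofibrate, of 8.29, 8.82 and 9.19 under bezafibrate, of 7.71, 8.14 and 8.70 under tesaglitazar, and of 7.42, 8.07 and 8.36 under saline. Ivns1abp had 1 probe called lower under tesaglitazar (-0.38) and 2 that were not (limma adjusted p = 0.999 and 0.712). A further 23 probes of 17 member genes were on the array but were no members. Of the 9 that were detected in all fibrate livers, 8 had a score above 0, the highest 0.20. Probes detected in fewer fibrate livers are not in this count. Those detected in 10 to 17 of them scored 0.30 (Usp2), 0.05 (Ppl), 0.01 (Per3), -0.03 (Coq10b), -0.04 (Tef) and -0.21 (Thrsp). The Pcsk4 probe ILMN_2860850 was among these 9. On the scale of the choice it was 0.10 above saline under fenofibrate and 0.31 under bezafibrate. The Pcsk4 members were 0.77 to 0.79 and 0.62 to 0.75 above saline on that scale.

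Drug-metabolising members spread widely within treatments. Gsta1 and Gsta2 code for glutathione transferases and are close paralogs, so that a probe of one may also bind transcripts of the other, which was not tested. On the scale of the choice, the Gsta1 member was 0.72 higher under bezafibrate than under tesaglitazar, which lay below saline (8.69 against 8.97). At the Gsta1 probes ILMN_1231997 and ILMN_2979237, which are no members, this difference was only 0.18 and 0.0003. Bezafibrate was 0.70 and 0.78 above saline there, so tesaglitazar lay above saline too. Gsta2 had log2 levels of 8.92 (lowest), 9.42 (median) and 9.93 (highest) under fenofibrate, of 8.18, 9.14 and 10.00 under bezafibrate, of 7.77, 8.20 and 9.11 under tesaglitazar, and of 7.76, 8.22 and 9.58 under saline. Cyp2b10, a cytochrome P450 induced through CAR, had 8.28, 8.72 and 9.93 under fenofibrate, 6.72, 7.93 and 9.19 under bezafibrate, 5.92, 7.04 and 8.05 under tesaglitazar, and 6.61, 7.68 and 8.40 under saline. Bezafibrate overlapped every other group for both genes. On the list of CAR and PXR targets, the 52 probes that are no members included 19 called higher and 18 lower under fenofibrate, 4 higher under bezafibrate, and 13 higher and 25 lower under tesaglitazar. Of the 16 other probes on the NRF2 list, 10 were called higher under fenofibrate, none under bezafibrate and 9 under tesaglitazar. The fatty acid synthesis list, which holds Thrsp, had 8 higher and 7 lower calls among its 19 other probes under fenofibrate, 1 lower call under bezafibrate, and 9 higher and 6 lower calls under tesaglitazar. The 16 other glucocorticoid probes had 2 higher and 4 lower calls under fenofibrate, 4 higher under bezafibrate, and 5 higher and 7 lower under tesaglitazar. Beside these list counts, 30% of all probes were called in either direction under fenofibrate, 3.22% under bezafibrate and 46.3% under tesaglitazar. Higher calls alone made up 14.7%, 1.54% and 22.5%.

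The remaining named members had other metabolic or signalling roles. Coq10b, a coenzyme Q binding protein of mitochondria, had log2 levels of 8.64 (lowest), 9.46 (median) and 9.87 (highest) under fenofibrate, of 9.32, 9.47 and 9.85 under bezafibrate, of 8.69, 8.91 and 9.10 under tesaglitazar, and of 7.76, 8.73 and 9.28 under saline. Another Coq10b probe, ILMN_2521147, was detected in all fibrate livers but is no member. On the scale of the choice it was 0.09 below saline under fenofibrate and 0.08 above it under bezafibrate. The Coq10b members were 0.74 and 0.75 above saline under fenofibrate on that scale. The calcium-binding protein gene Cib3 had 9.83, 10.45 and 11.23 under fenofibrate, 8.88, 9.49 and 11.13 under bezafibrate, 7.81, 9.22 and 9.96 under tesaglitazar, and 8.78, 9.20 and 10.26 under saline. Among other metabolic members, Nmrk1, a nicotinamide riboside kinase, was 0.98 above saline under fenofibrate and 0.77 under bezafibrate, Slc19a1, a folate carrier, 0.50 and 0.51, and Gpt2, an alanine aminotransferase, 0.40 and 0.34. Sbk1 was 0.79 and 0.43 above saline, 1810055G02Rik 0.80 and 0.61, Ptp4a1 0.46 and 0.41, Anapc13 0.38 and 0.28, Hsd17b6 0.36 and 0.39, Stbd1 0.26 and 0.35, and Akr1c19 0.25 and 0.29. Within mouse numbers 1 to 20 alone, 55 of the 56 members scored above 0, and Cib3 scored -0.28. Within 21 to 40, 52 scored above 0, and Hsd17b6 (-0.19), Thrsp (-0.10), Cyp7a1 (-0.10) and the unnamed ILMN_1255287 (-0.05) did not. Hsd17b6 scored only 0.004 within 1 to 20. These livers also chose the members, so the counts are a description. The 9 unnamed members were 0.29 to 0.99 above saline under fenofibrate and 0.26 to 0.74 under bezafibrate.

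Between fenofibrate and bezafibrate, 2 of the 56 members were called, both probes of Upp2, where 21.2% of all probes were called. All 4 group means entered the choice here too, but it did not fix which fibrate was higher. The score is set by the lower of the fibrate means, so it favours probes with similar levels under both. The members' low share of calls between the fibrates, adjusted or unadjusted, is therefore not read as a result. The level of Upp2 was 1.47-fold lower under fenofibrate at ILMN_2458184 (log2 difference -0.56, SE 0.15, limma adjusted p = 0.00479) and 1.35-fold lower at ILMN_2458185 (-0.43, SE 0.14, limma adjusted p = 0.0255), while the remaining Upp2 probe differed by -0.44 (limma adjusted p = 0.0887). With median centring in place of quantile normalisation the differences were -0.50 and -0.38 and neither passed (limma adjusted p = 0.0575 and 0.13), and with saline 4 and tesaglitazar 6 put back as labelled no member was called. Without fenofibrate liver 37, which had the lowest Upp2 level of its group, 1 member was called.

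For the other 54 members a difference between the fibrates was not called, which does not make them alike. With median centring 3 members were called, all higher under fenofibrate, and with only the fibrate groups in the fit 6 were called, 2 higher and 4 lower. The share of all probes called in these fits is not given, so nothing is read from these counts. Cyp2b10 was 0.77 higher under fenofibrate (95% interval 0.19 to 1.36, limma adjusted p = 0.0524) and Cib3 0.67 higher (0.13 to 1.22, limma adjusted p = 0.072). Tef was 0.36 lower under fenofibrate (interval -0.68 to -0.03, limma adjusted p = 0.114). An unadjusted limma p under 0.05 was reached by 7 of the 56 members (12.5%) and by 31.4% of all probes, and over all members the 95% intervals reached from -0.86 to 1.36 on the log2 scale. The median difference was 0.04, beside -0.01 over all probes.

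Livers of the same treatment differed in a coordinated way. After subtraction of the treatment mean, the median Pearson correlation over the 35 livers was 0.27 for the 1540 pairs of members, 0.59 for the 28 pairs of the 8 clock members and -0.001 for all pairs of 19773 probes. A correlation of at least 0.5 was reached by 19.4% of member pairs, 75% of clock member pairs and 1.74% of all pairs. Pairs of probes for the same gene are included in the member values. In a permutation test within treatments, two-sided with 100000 resamples, 430 of the 1540 pairs had a positive and 19 a negative correlation at an adjusted p under 0.05, and Spearman's rho gave 263 and 13.

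Several close pairs joined a clock member to another member. Tef and Ngef had r = 0.88 and rho = 0.78 over 35 livers (permutation adjusted p = 0.00032 and 0.00057, with raw p at the smallest value the test can give, 1e-05), and r = 0.83 without the 2 livers farthest out. The Per2 probe ILMN_2987863 and Coq10b (ILMN_3104462) had r = 0.81 and rho = 0.79 (permutation adjusted p = 0.00032 and 0.00057), and r = 0.82 without 2 livers. The Per2 probe ILMN_2987862 and the same Coq10b probe had r = 0.81 and rho = 0.69 (permutation adjusted p = 0.00032 and 0.0022), and r = 0.68 without 2 livers. Ciart and Slc5a6 had r = 0.79 and rho = 0.68 (permutation adjusted p = 0.00052 and 0.00167), and r = 0.68 without 2 livers. Gsta2 and Gsta1 had r = 0.89 and rho = 0.86 (permutation adjusted p = 0.00032 and 0.00057), and r = 0.86 without 2 livers. Gsta2 and Alas1 had a negative correlation, with r = -0.60 and rho = -0.48 (permutation adjusted p = 0.00602 and 0.0417) and r = -0.49 without 2 livers. These pairs were chosen after their values were seen.

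Single livers contributed unevenly. Fenofibrate liver 37 was the lowest of its 9 livers for 36 of the 56 members, and it was the highest of its group for Cyp2b10 and, among the clock genes that are no members, for Arntl and Clock. Tesaglitazar liver 10 was the highest of its 8 for 28 members, saline liver 25 the highest of its 9 for 23 and saline liver 2 the lowest for 18. Whether these mice differed in sampling time or in another respect was not tested, since the labels give none of this.

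Probes were also chosen separately in mouse numbers 1 to 20 and 21 to 40, which the labels do not call batches. Of 60 probes chosen on numbers 1 to 20 alone, 44 scored above 0 in numbers 21 to 40, with a median of 0.15. Of 60 chosen on numbers 21 to 40, 52 scored above 0 in numbers 1 to 20, with a median of 0.28. On all livers together, the score over the 14187 detected probes had a median of -0.13 and was above 0 for 1498. The share of all probes above 0 within 1 number range was not computed. The counts of 44 and 52 thus lack a background of their own, and nothing is read from them.

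In the brain the question was whether the same probes differed outside the liver. In prefrontal cortex 43 of the 56 members were tested, and 6 were called for fenofibrate minus saline, all higher, where 6.04% of all probes were called and 2.57% were called higher. They were both member probes of Per2, both of Coq10b, 1 of Per1 and Slc5a6. The members not tested were mainly liver genes such as Cyp7a1, Gsta2 and Cyp2b10, which were too dim there. Of the 27 probes on the clock list, 6 were called higher and none lower, the 3 Per1 and Per2 members and, among the others, Bhlhe40 (0.33), Lonrf3 (0.33) and the second Per3 probe (0.39). Within mouse numbers 1 to 20 alone 3 members were called and within 21 to 40 none.

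Per2 (ILMN_2987862) had log2 levels of 9.24 (lowest), 9.64 (median) and 9.89 (highest) in fenofibrate cortices, of 9.13, 9.45 and 9.71 in bezafibrate cortices, of 9.00, 9.21 and 9.71 in tesaglitazar cortices, and of 8.71, 9.04 and 9.34 in saline cortices. The fenofibrate and saline ranges overlapped only at their ends. The level was 1.45-fold higher under fenofibrate (log2 difference 0.54, SE 0.09, limma adjusted p = 0.000709), and 1.50-fold higher at the second probe (0.58, SE 0.10, limma adjusted p = 0.00106). Its differences from saline were 0.41 under bezafibrate and 0.27 under tesaglitazar (limma adjusted p = 0.231 and 0.554).

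Per1 (ILMN_2813484) had log2 levels of 9.41 (lowest), 9.63 (median) and 10.08 (highest) in fenofibrate cortices and of 8.87, 9.30 and 9.69 in saline cortices. It was 1.32-fold higher (log2 difference 0.40, SE 0.10, limma adjusted p = 0.0134). The second Per1 probe differed by 0.29 and did not pass (limma adjusted p = 0.0721). Bezafibrate and tesaglitazar cortices were 0.28 and 0.34 above saline without a call (limma adjusted p = 1 and 0.412). Coq10b (ILMN_3104462) was 1.26-fold higher under fenofibrate, with 8.76 ± 0.12 in 9 fenofibrate cortices and 8.43 ± 0.20 in 10 saline cortices (SD, limma adjusted p = 0.00698), and its second probe differed by 0.34 (limma adjusted p = 0.0352), a call that was lost in 14 of 29 alternatives. Slc5a6 was 1.20-fold higher, with 9.42 ± 0.17 and 9.16 ± 0.14 (SD, limma adjusted p = 0.0243).

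No member was called between fenofibrate and tesaglitazar in prefrontal cortex, where 8.1% of all probes were called. None was called either for bezafibrate minus saline (0.013% of all probes), tesaglitazar minus saline (0%), bezafibrate minus tesaglitazar (0.0173%) or fenofibrate minus bezafibrate (0.104%). An unadjusted limma p under 0.05 was reached between fenofibrate and tesaglitazar by 8 of the 43 members (18.6%), beside 23.7% of all probes. For fenofibrate minus saline the members' share was 27.9% (12 members), beside 22.1% of all probes. It was 27.9% (12 members) beside 4.26% of all probes for bezafibrate minus saline, and 18.6% (8 members) beside 6.47% for tesaglitazar minus saline. It was 0% (0 members) beside 5.94% for bezafibrate minus tesaglitazar, and 2.33% (1 member) beside 13% for fenofibrate minus bezafibrate. With array weights, 3 members were called between fenofibrate and tesaglitazar, and with the number range as a block 1 was. Per2 was 0.27 higher under fenofibrate than under tesaglitazar (95% interval 0.08 to 0.46, limma adjusted p = 0.0666) and Per1 0.06 higher (-0.14 to 0.26).

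In amygdala 45 members were tested and none was called in any of the 6 comparisons, where none of all 23803 probes was called. The members with an unadjusted limma p under 0.05 numbered 10 for fenofibrate, 5 for bezafibrate and 5 for tesaglitazar, each against saline, or 22.2%, 11.1% and 11.1% of the members tested, beside 8.67%, 5.11% and 6.36% of all probes. Per2 had log2 levels of 9.46 (lowest), 9.67 (median) and 9.98 (highest) in fenofibrate amygdalae, of 9.49, 9.71 and 9.86 in bezafibrate amygdalae, of 9.39, 9.58 and 9.82 in tesaglitazar amygdalae, and of 9.35, 9.41 and 9.90 in saline amygdalae, which all overlapped. The difference between fenofibrate and saline was 0.15 (95% interval -0.00049 to 0.309).

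The cortex and amygdala were then compared directly. Over both regions 47 members were tested, and none had a fenofibrate difference from saline that was called larger or smaller in cortex than in amygdala, where 0.408% of 25460 probes were called. An unadjusted limma p under 0.05 was reached by 12 members (25.5%) and by 14.9% of all probes. The second Per2 probe came nearest, with a difference larger by 0.50 in cortex (SE 0.13, limma adjusted p = 0.0507), and ILMN_2987862 by 0.37 (limma adjusted p = 0.122). For bezafibrate none of the members was called either, with 0% of all probes called and an unadjusted limma p under 0.05 for 5 members (10.6%) and 3.64% of all probes. Under 5 of 8 alternatives 1 member was called for fenofibrate, among them the fit with the number range as a block, so the call depends on the setting.

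Since the mouse numbers run from 1 to 40 without repeats across treatments, arrays of the same number were taken to come from 1 mouse, which the labels do not state. For the 8 clock members, levels relative to the treatment mean were compared between tissues by number in 24 relations, with permutation within treatments. Per1 in liver and prefrontal cortex was the 1 gene that passed. Its probe ILMN_2813487 had r = 0.65 and rho = 0.61 over 35 mice (permutation adjusted p = 0.00384 and 0.0072), and r = 0.55 without the 2 mice farthest out in liver. Its probe ILMN_2813484 had r = 0.58 and rho = 0.53 (permutation adjusted p = 0.0107 and 0.0198), and r = 0.50 without 2 mice. Within treatment and number range (1 to 20 or 21 to 40) the correlations were 0.64 and 0.56. Within single treatments, the second of these probes had r = 0.84 over 9 fenofibrate mice, 0.33 over 9 bezafibrate mice, 0.17 over 8 tesaglitazar mice and 0.67 over 9 saline mice. The other 22 relations did not pass, and those of Per2 in liver and cortex had r = 0.02 and 0.20. Of the 24 relations between level and mouse number within runs of consecutive numbers, none passed after adjustment (8 at a permutation p under 0.05 before it). In liver r ran from 0.13 to 0.45 (median 0.35), in cortex from 0.05 to 0.54 (median 0.25) and in amygdala from -0.19 to 0.22 (median 0.13). A positive r stands for higher levels at higher numbers. Each run holds a single treatment, so these relations cannot separate treatment from number order between runs.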

How the data were processed

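RNA from liver (37 arrays), prefrontal cortex (38) and amygdala (37) of mice was measured on Illumina bead arrays; 8 further columns matched no sample used here. The authors deposited raw bead intensity for 45281 probes with a detection p-value for each probe and array. They also deposited a processed log2 table, made with lumi (version not given) per the submitters' processing notes, which served as an alternative. Genes come from the platform annotation, which gave 1 gene for 34885 probes, several for 18 and none for 10378.

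Members were chosen on quantile-normalised log2 raw intensity. All levels and tests used another scale: limma 3.58.1 in R 4.3.3 corrected background with the detection p-values (nec, offset 16), quantile-normalised the arrays of a tissue and took log2. Probes with detection p under 0.05 on at least 9 arrays of a tissue were tested, with 1 model for the 4 treatments of a tissue, and two-sided p-values were adjusted by Benjamini-Hochberg over all of them at 0.05. The test was checked on simulated data.

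The members and gene lists were chosen with earlier results of these data known. Described by name are the 15 members with the highest score, members called between the fibrates or for tesaglitazar minus saline in liver (up to 10 each way), members called in brain, members on a list and genes with several member probes; the other members are given briefly. Permutation tests used 100000 resamples. Nothing says that arrays came from separate batches, and the number of arrays limits the precision. Mouse numbers follow treatment in blocks, in the same order within each number range: saline, tesaglitazar, bezafibrate, fenofibrate. Both fibrates thus carry higher numbers than saline and tesaglitazar within each range. Treatment therefore cannot be told apart from number order. The labels give no order of handling or sampling, and its part in the members' differences was not tested. Samples with the same number in different treatments do not occur, so no pairing across treatments exists.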

Additional observations from a re-analysis of the deposited data

Results flagged for a closer look

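Among 112 groups of arrays, 104 of members and 8 of Arntl and Clock, 11 held 1 array far from the rest by Dixon's criterion at 95%, where chance gives about 1 in 20. In liver, fenofibrate 37 lay low for 5 genes: Per2 (8.51, nearest other liver 9.03), Ciart (5.27, nearest 6.01), Tef (8.65, nearest 9.05), Coq10b (8.64, nearest 9.38) and Inmt (13.11, nearest 13.46), all on the log2 scale. Bezafibrate 31 lay low for Upp2 (11.37, nearest 11.61), saline 2 low for Alas1 (11.22, nearest 12.50) and saline 25 high for Usp2 (4.97, nearest 4.57). In prefrontal cortex bezafibrate 35 lay high for Coq10b (9.05, nearest 8.73). In amygdala fenofibrate 38 (10.17, nearest 9.86) and saline 2 (10.11, nearest 9.75) lay high for Per1. The cause was not tested.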

How the results depend on the processing

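Of the members' called differences, 31 were recomputed under the alternatives (those between the fibrates and of tesaglitazar against saline in liver, and of fenofibrate against saline in cortex), and none of the 31 changed sign, but the direction of the calls between the fibrates did with median centring. Of the 56 members, the count called between fenofibrate and bezafibrate in liver was 1 without a detection filter, 6 with only these groups in the fit, 1 within mouse numbers 1 to 20, 0 with all 37 livers as labelled, and 1 to 4 when single livers were left out (1 without fenofibrate 37, 4 without bezafibrate 33). With median centring 3 were called, all higher, against 2 lower. The count for tesaglitazar minus saline was 13 within numbers 1 to 20 and 15 within 21 to 40, and 21 to 26 without single livers; with median centring it was 17, with 7 higher and 10 lower. In prefrontal cortex, fenofibrate minus saline gave 3 with only these groups, 3 within numbers 1 to 20, 0 within 21 to 40, and 5 to 8 without single arrays. There fenofibrate minus tesaglitazar gave 3 with array weights and 1 with the number range as a block, and tesaglitazar minus saline 1 with median centring. In amygdala, fenofibrate minus saline gave 1 within numbers 1 to 20 and tesaglitazar minus saline 1 within 21 to 40. The comparison of cortex with amygdala for fenofibrate gave 1 without background correction, with a trended robust fit, with array weights, with the authors' processed values and with the number range as a block. Fewer arrays entered the fits within number ranges, and for the other settings the cause was not tested. The share of all probes called in each of these alternative fits is not given here or above. The counts therefore cannot tell a change of the members from a change over all probes.

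Median centring moved the median of all probes in prefrontal cortex for tesaglitazar minus saline to 0.11. The choice of 60 probes shared 47 with one on background-corrected values, 49 with median centring, 57 with the authors' processed values, and 40 and 44 with the number ranges 1 to 20 and 21 to 40. A replicate block by mouse number in the comparison of cortex with amygdala called 0 members for fenofibrate and 0 for bezafibrate. The median correlation of same-numbered arrays was 0.0501 between liver and cortex, 0.0174 between liver and amygdala and 0.067 between cortex and amygdala. For arrays of different numbers it was -0.0035, 0.0006 and -0.0018. The array of the same number was the best match for 5 of 35, 0 of 32 and 2 of 35 arrays. The numbers alone thus do not show that arrays are paired. Arrays in a treatment number 8 to 10, which limits what can be shown for small differences.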
